A study of Mus musculus with 8 samples.

Results

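The genes described here are 80 mouse zinc finger genes whose symbol is Zfp followed by a number, measured in a microarray study of embryonic stem cells. A platform annotation gave 155 such genes a probe set of their own, after Zfp42 and Zfp352 had been left out, among 12394 genes measured in all. Each gene was represented by its brightest probe set, the one with the highest mean over the 8 arrays, and kept where that mean was 6 or more on the log2 scale. The remaining 75 genes lay under 6. The members were thus chosen by their measured level over all arrays, which is given as a description only. All 80 members had a shControl mean of 6 or more, and 75 of them had a day 4 mean of 6 or more.

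Zfp is the mouse prefix for a large set of genes whose proteins, for the most part, carry C2H2 zinc fingers, small zinc-held loops that read DNA, RNA or other proteins. Many of them also carry a KRAB domain, which recruits the corepressor Trim28 and, through it, the histone methyltransferase Setdb1, so that the finger array chooses a sequence and the domain silences it. In stem cells and the early embryo this system is known for silencing retroelements and for keeping genomic imprints. The symbol marks no single function, since it also holds pluripotency factors, ribosome and splicing proteins, and regulators of later development.

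The study asked what follows the knockdown of Fbxl19 in mouse embryonic stem cells of the J1 line, an established line grown here on gelatin with leukemia inhibitory factor. Fbxl19 encodes an F-box protein that binds CG dinucleotides without DNA methylation through a CXXC zinc finger. The 8 arrays formed 4 groups of 2: cells with hairpin shRNA1 against Fbxl19, cells with hairpin shRNA2 against Fbxl19, J1 cells differentiated for 4 days (day 4), and cells with a control hairpin (shControl). The labels did not say how differentiation was carried out, whether day 4 cells carried a hairpin, or whether replicates were separate cultures, so p-values reflect only how far these arrays spread, and that spread may be technical. No probe set was annotated to Fbxl19, and its knockdown was not analysed here. A free-text label named other Fbxl genes for some knockdown samples, whereas titles and source names gave Fbxl19 throughout and were followed.

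The values were deposited log2 expression values, 1 per probe set. Replicates of a group correlated across all genes at r of 0.988 to 0.997. The shControl replicate 2 array stood apart, with an upper quartile of 8.18 over all probe sets, and over the 80 genes it lay a median of 0.16 above shControl replicate 1. The 10 markers of undifferentiated stem cells averaged 10.8 to 10.9 on the shRNA1 arrays, 10.7 to 10.9 on the shRNA2 arrays, 8.54 to 9.29 on the day 4 arrays and 10.8 on both shControl arrays, so the label of stem cells fitted the 3 undifferentiated groups. Of the 8 fibroblast markers, 7 were under 6 on every array. The gap between the 3' and 5' actin control probe sets, a sign of RNA quality, was 0.65 to 0.76 on the hairpin and day 4 arrays and 0.54 to 0.60 on the shControl arrays. That gap moved with every comparison against shControl, and its part in the results was not tested. The same gap for Gapdh overlapped between groups, at 0.18 to 0.27 on the hairpin and day 4 arrays and 0.17 to 0.26 on the shControl arrays.

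The members spanned the upper range of the array. Their mean over 8 arrays had a median of 7.47, against 8.33 over the 6552 genes of the array that also reached 6. At the top stood Zfp622, a factor of ribosome assembly, with 11.70, Zfp982 with 11.57 and Zfp207, a spindle protein that binds Bub3, with 10.83. The probe sets of Zfp622 and Zfp982 are of a kind that may also read related transcripts, as are 7 of the 80 in all. The other probe set of Zfp622 had a mean of 8.91. Just inside the threshold were Zfp593 with 6.09, Zfp959 with 6.08 and Zfp820 with 6.04, and just outside it were Zfp160 with 5.998, Zfp821 with 5.99 and Zfp942 with 5.92. Probe sets differ in brightness for the same amount of RNA, so these values do not order the genes by transcript number. Among the undifferentiated cells the genes varied little: over those 6 arrays the range of a member had a median of 0.40, and 79 of 80 members ranged over less than 1. The exception was Zfp62, on the brighter of its 2 probe sets.

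On day 4 of differentiation 5 of the 80 genes rose and 10 fell relative to shControl at a limma adjusted p under 0.05, taken over all 12394 genes. That is 18.75% of the members, against 16.4% of all genes and 21.4% of genes that reached a mean of 6, so the share called was near that of the array as a whole. Rises made up 6.25% of the members and falls 12.5%, against 7.67% and 8.73% of all genes and 8.62% and 12.8% of genes that reached 6. The falls were the larger changes: 6 members fell by 1 or more on the log2 scale and 1 rose by as much, together 8.75% of the members against 7.47% of all genes and 9.33% of genes that reached 6. The other 65 genes passed in neither direction, and the median change over the 80 was -0.07, against 0.00 over all genes and -0.08 over genes that reached 6. With each array centred on its own median, the members' median was -0.0036, and without shControl replicate 2 it was 0.0040. Both day 4 arrays lay above both shControl arrays for 21 members and below them for 28, or 26.25% and 35% of the members, against 24.1% and 26.3% of all genes and 22.9% and 33.8% of genes that reached 6. In bulk RNA a change in the share of cells of a type and a change in RNA per cell cannot be told apart.

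**Figure D1:**
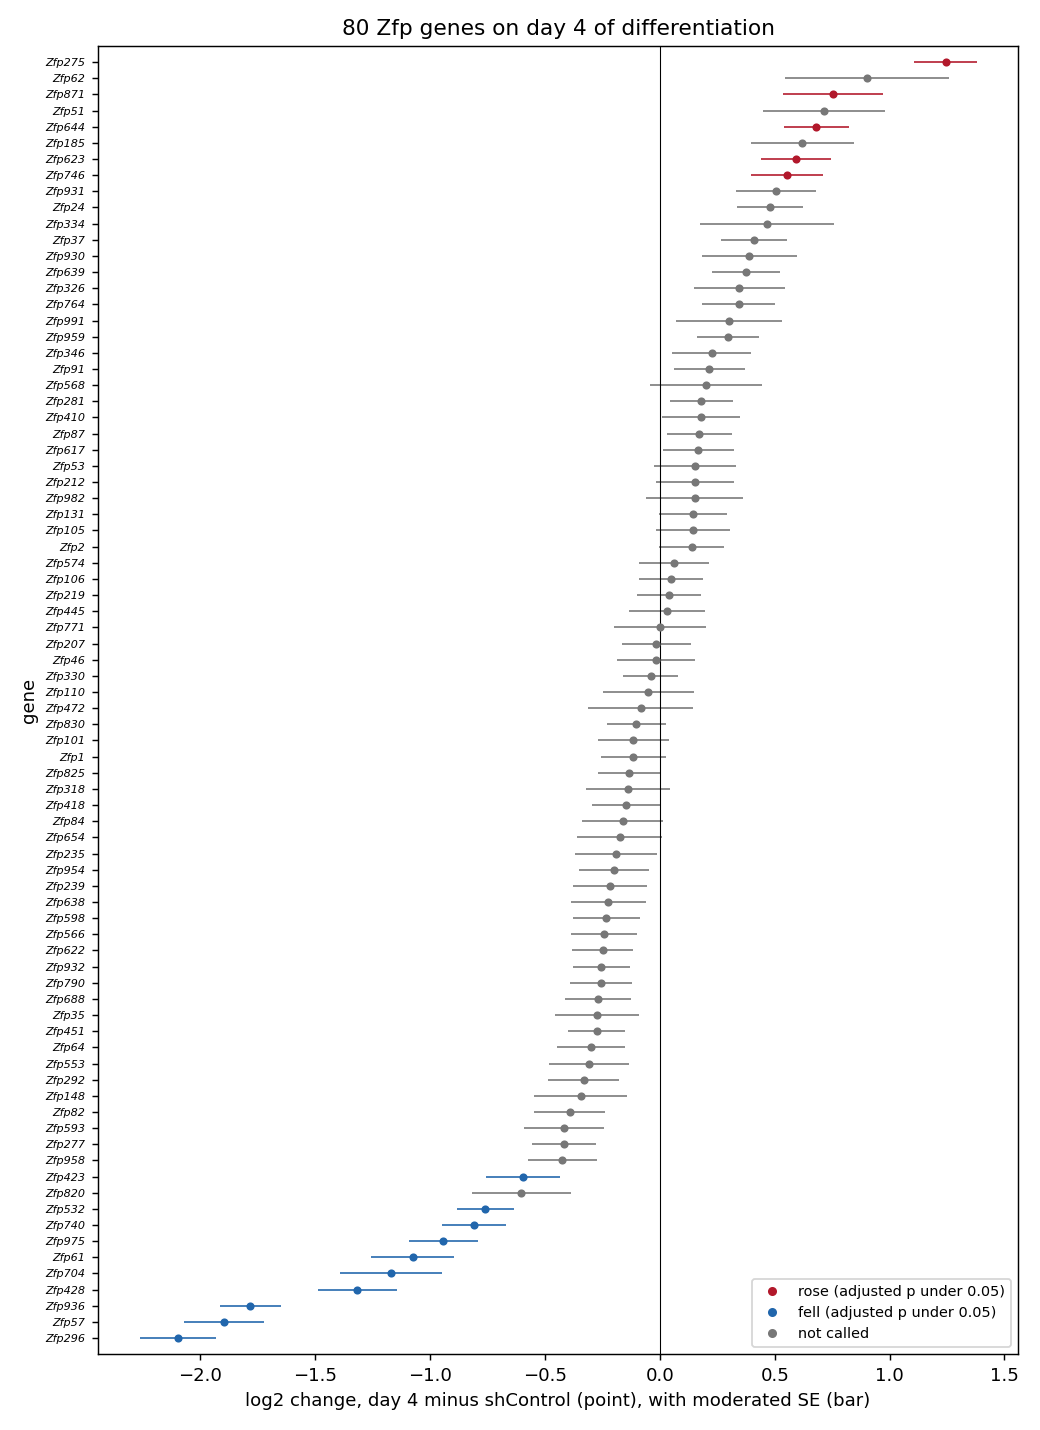
Each row is 1 of the 80 Zfp genes, ordered by its log2 change on day 4 relative to shControl on the horizontal axis, with the moderated standard error as a bar. The 10 genes that fell (blue) reach -2.10 at Zfp296, the 5 that rose (red) reach 1.24 at Zfp275, and the 65 not called (grey) lie between -0.60 and 0.90.

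The falls were led in size by Zfp296 and Zfp57. Zfp296, a stem cell and germ cell factor that promotes reprogramming to pluripotency, had 7.90 and 7.55 on the day 4 arrays, 9.92 and 9.68 with shRNA1, 9.75 and 9.52 with shRNA2, and 9.85 and 9.80 with shControl. Both day 4 arrays lay far below all 6 undifferentiated arrays, among which the shRNA2 pair lay slightly below the shControl pair. The log2 change was -2.10 ± 0.17 (moderated SE, n = 2 arrays a group, limma adjusted p 6.68e-05), a level 4.28-fold lower. Zfp57, the KRAB zinc finger protein that binds methylated imprint control regions and keeps them methylated, had 4.95 and 4.60 on day 4, 6.50 and 6.51 with shRNA1, 6.51 and 6.53 with shRNA2, and 6.47 and 6.87 with shControl. The undifferentiated arrays were alike apart from the higher shControl replicate 2, and day 4 stood well under them. Its change was -1.90 ± 0.17 (adjusted p 0.000150, 3.72-fold lower).

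Zfp936 had 7.36 and 7.52 on day 4, 8.95 and 8.90 with shRNA1, 8.99 and 9.10 with shRNA2, and 9.14 and 9.30 with shControl. It carried the smallest adjusted p of the members, with a change of -1.78 ± 0.13 (limma adjusted p 5.46e-05, 3.44-fold lower), and its day 4 arrays did not overlap any other group. Zfp428 had 8.80 and 8.98 on day 4, 9.86 and 10.16 with shRNA1, 10.25 and 10.31 with shRNA2, and 10.02 and 10.40 with shControl, a change of -1.32 ± 0.17 (adjusted p 0.00104). The day 4 pair lay beneath all 6 undifferentiated arrays, and of these the shRNA1 and shRNA2 pairs each overlapped the controls but not each other.

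Printed here are the promoter windows of the 3 strongest falls on day 4 and of Zfp275, the strongest rise. CG dinucleotides, which Fbxl19 is known to bind, are in capitals. The genes were chosen by their day 4 change, and none of them was called against shControl under the hairpins. These arrays do not measure binding, and a link of these changes to Fbxl19 was not tested. Each window runs 5′ to 3′ on the gene's own strand from 250 bases before to 50 bases after the annotated start, from RefSeq on build GRCm38.p6. The 4 genes all lie on the plus strand, at chr7:19577037-19577336 for Zfp296, chr17:37002275-37002574 for Zfp57, chr7:43177340-43177639 for Zfp936 and chrX:73342370-73342669 for Zfp275. For Zfp57, which has 3 annotated windows, the one with the most CG is given.
Zfp296: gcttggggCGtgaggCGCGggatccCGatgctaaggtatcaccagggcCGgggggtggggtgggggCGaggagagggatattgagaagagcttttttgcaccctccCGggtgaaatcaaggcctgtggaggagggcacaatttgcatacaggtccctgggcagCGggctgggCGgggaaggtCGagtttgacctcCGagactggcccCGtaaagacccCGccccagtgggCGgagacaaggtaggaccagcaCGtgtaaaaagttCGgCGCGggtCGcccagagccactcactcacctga
Zfp57: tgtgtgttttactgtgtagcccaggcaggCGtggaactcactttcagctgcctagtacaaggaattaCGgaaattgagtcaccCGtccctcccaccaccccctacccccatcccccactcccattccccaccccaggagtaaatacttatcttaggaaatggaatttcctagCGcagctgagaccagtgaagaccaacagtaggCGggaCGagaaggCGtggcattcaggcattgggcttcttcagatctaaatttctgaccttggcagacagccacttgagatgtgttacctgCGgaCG
Zfp936: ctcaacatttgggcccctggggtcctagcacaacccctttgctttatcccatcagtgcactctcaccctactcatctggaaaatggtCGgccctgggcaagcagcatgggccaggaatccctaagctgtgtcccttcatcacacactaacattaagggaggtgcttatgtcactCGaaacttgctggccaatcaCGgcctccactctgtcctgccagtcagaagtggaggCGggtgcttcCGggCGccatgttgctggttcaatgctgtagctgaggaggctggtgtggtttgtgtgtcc
Zfp275: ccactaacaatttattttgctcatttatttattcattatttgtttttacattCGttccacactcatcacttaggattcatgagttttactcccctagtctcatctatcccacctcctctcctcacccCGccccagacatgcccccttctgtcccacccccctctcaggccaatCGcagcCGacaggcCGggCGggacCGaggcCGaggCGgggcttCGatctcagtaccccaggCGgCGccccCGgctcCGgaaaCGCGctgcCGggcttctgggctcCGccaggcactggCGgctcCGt
These windows hold 19 CG in Zfp296, 9 in Zfp57, 6 in Zfp936 and 20 in Zfp275. The share of G and C is 63.3% in Zfp296, 52.7% in Zfp57, 55.7% in Zfp936 and 58.7% in Zfp275.

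The other 6 falls were smaller. Zfp704 had 5.54 and 5.52 on day 4, against 6.35 and 7.06 with shControl, a change of -1.17 ± 0.22 (limma adjusted p 0.00736). Its control arrays were further apart than those of its other groups, and day 4 lay under all of them. Its second probe set changed by -0.99 on the same scale. Zfp61 had 5.57 and 5.82 on day 4, against 6.56 and 6.99 with shControl, a change of -1.08 ± 0.18 (adjusted p 0.00389). Zfp975 had 6.41 and 6.17 on day 4, against 7.20 and 7.26 with shControl, a change of -0.94 ± 0.15 (adjusted p 0.00318). For Zfp61 and Zfp975 the day 4 arrays lay below all undifferentiated arrays. The probe set of Zfp975 is of a kind that may also read related transcripts, and its other probe set changed by -0.81. Zfp740 had 7.25 and 7.35 on day 4, against 7.97 and 8.24 with shControl, a change of -0.81 ± 0.14 (adjusted p 0.00439). Zfp532, whose human counterpart is found in a complex with ZMYND8, had 7.44 and 7.46 on day 4, against 8.17 and 8.25 with shControl, a change of -0.76 ± 0.13 (adjusted p 0.00365). The replicates of Zfp532 lay close together in every group.

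The tenth fall was that of Zfp423, a many-fingered partner of SMAD and EBF factors that directs fat cell commitment and cerebellar growth. It had 7.21 and 7.58 on day 4, 7.32 and 7.21 with shRNA1, 7.74 and 7.50 with shRNA2, and 7.98 and 8.0 with shControl. Here the day 4 arrays overlapped those of both hairpins, and the shControl pair alone stood higher. The change on day 4 was -0.59 ± 0.16 (limma adjusted p 0.0367), and against the mean of all 3 undifferentiated groups it was -0.23 (adjusted p 0.273).

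**Figure D2:**
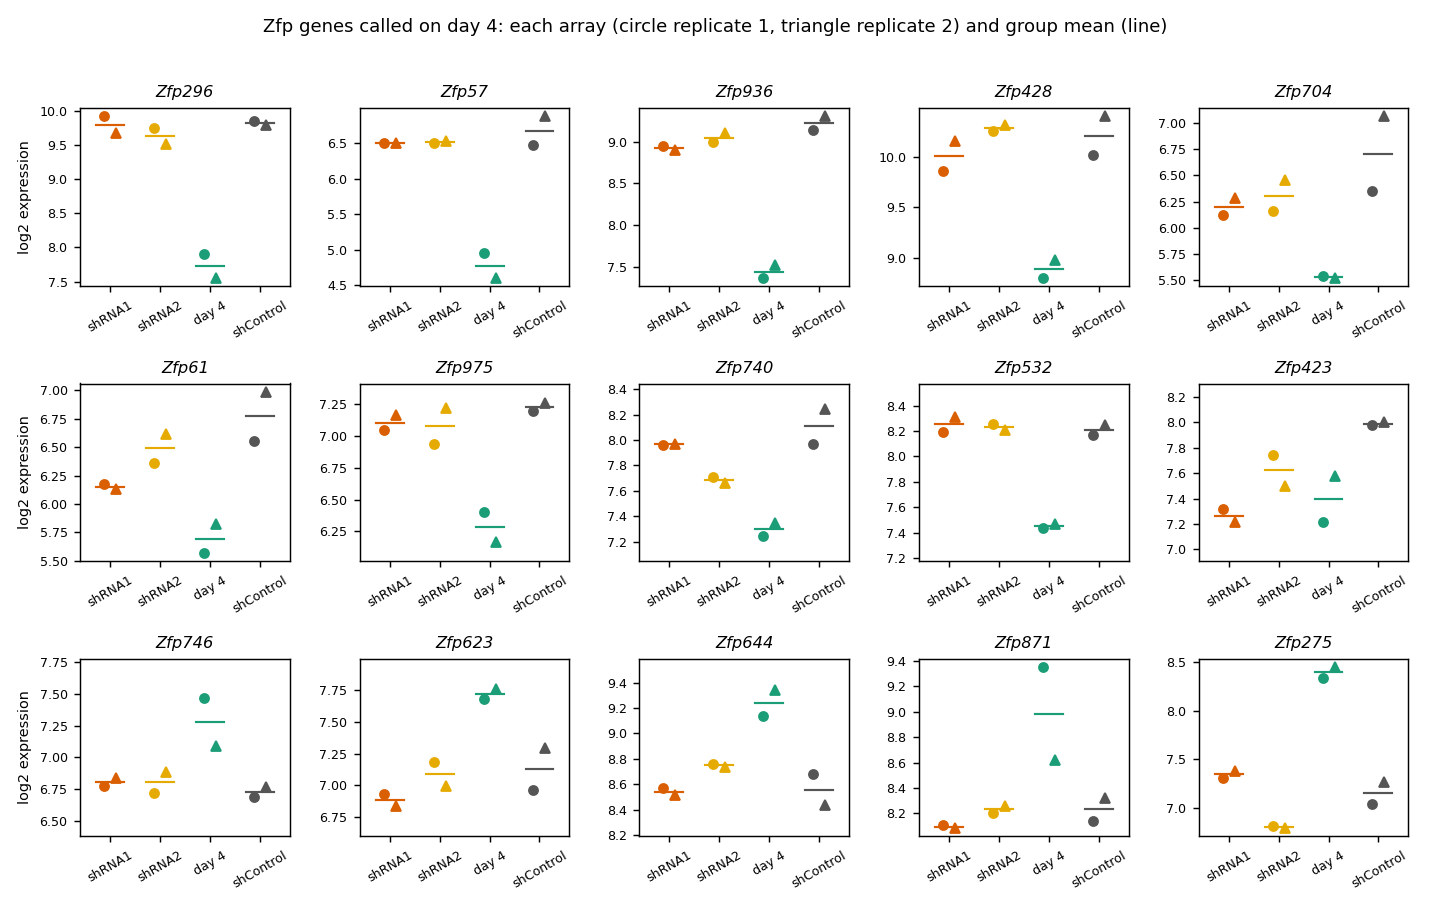
Log2 expression (vertical axis of each panel, own scale) of the 15 Zfp genes called on day 4, with 1 symbol per array (circle replicate 1, triangle replicate 2) and a line at the group mean, for shRNA1, shRNA2, day 4 and shControl from left to right. In 14 of the 15 panels day 4 lies outside all 6 undifferentiated arrays, and in the Zfp423 panel it overlaps both hairpins.

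The 5 rises were led by Zfp275, an X-linked gene. It had 8.34 and 8.45 on day 4, 7.31 and 7.37 with shRNA1, 6.81 and 6.79 with shRNA2, and 7.04 and 7.26 with shControl. Day 4 was above every other array, and the 3 undifferentiated groups also lay apart from one another. The change was 1.24 ± 0.14 (limma adjusted p 0.000366), a level 2.37-fold higher. Zfp644, whose human counterpart recruits the histone methyltransferase Ehmt2, had 9.14 and 9.34 on day 4, against 8.68 and 8.44 with shControl. Its change of 0.68 ± 0.14 (adjusted p 0.0115) came from the brightest of 4 probe sets, and the other 3 changed by 0.16 to 0.46.

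The remaining rises were weaker. Zfp871 had 9.35 and 8.62 on day 4, against 8.14 and 8.32 with shControl, a change of 0.75 ± 0.22 (limma adjusted p 0.0455). Its day 4 replicates were further apart than the lower of them was from the controls. Zfp623 had 7.68 and 7.76 on day 4, against 6.96 and 7.29 with shControl, a change of 0.59 ± 0.15 (adjusted p 0.0301). Zfp746, which encodes the parkin substrate PARIS, a repressor of Ppargc1a, had 7.47 and 7.09 on day 4, against 6.69 and 6.77 with shControl, a change of 0.56 ± 0.16 (adjusted p 0.0425). For Zfp623 and Zfp746 the day 4 arrays lay above all undifferentiated arrays.

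The 10 calls of Zfp296, Zfp57, Zfp936, Zfp428, Zfp704, Zfp61, Zfp975, Zfp740, Zfp532 and Zfp275 held without any single array and in every other setting tried. Those of Zfp871, Zfp623, Zfp746 and Zfp423 were lost without either shRNA1 array or either shRNA2 array, which enter only the shared estimate of the spread, at unchanged values. Among the compared arrays, the loss of day 4 replicate 1 left Zfp871 at 0.39, Zfp746 at 0.37 and Zfp423 at -0.41, and the loss of day 4 replicate 2 left Zfp623 at 0.55. Without shControl replicate 1 the values were 0.66 for Zfp871, 0.43 for Zfp623, 0.52 for Zfp746 and -0.60 for Zfp423. Without shControl replicate 2 they were 0.84 for Zfp871, 0.60 for Zfp746, -0.58 for Zfp423 and 0.56 for Zfp644, none of them called. These 4 genes and Zfp644 were also not called when the day 4 and shControl arrays alone were fitted, and Zfp644 was at 0.37 and not called with its probe sets averaged.

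All 6 undifferentiated arrays can also be set against day 4. Both day 4 arrays lay above all 6 for 16 members and below all 6 for 19, or 20.0% and 23.75% of the members, against 15% and 17.1% of all genes and 17.7% and 24.3% of genes that reached 6. Against the mean of the 3 undifferentiated groups, 11 members rose and 10 fell, or 26.25% of the members, while 22.8% of all genes and 30.6% of genes that reached 6 were called. The calls against shControl were kept for 14 of 15 members, with Zfp423 the exception, and 7 members were added, 6 higher and 1 lower. One of those added was Zfp959, at 0.36. Its mean was 5.99 over the 6 undifferentiated arrays and 6.35 on day 4, so it reached the threshold only through the day 4 arrays. Its rise is therefore a description only.

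Markers of other cells moved on day 4 as well. Of the 10 markers of undifferentiated cells, 7 fell and none rose. Of 8 trophoblast markers, 4 rose and 1 fell, and their mean was 6.49 to 6.83 on the day 4 arrays, against 5.27 to 5.37 on the shControl arrays. Krt18 (3.53), Krt8 (2.83), Eomes (2.70) and Cdx2 (0.59) rose, Tfap2c fell (-1.75), and Elf5, Hand1 and Gata3 were not called. Under 6 on every array were 4 of these 8. Of 8 early neural markers, Zic1 rose (0.71) and Tubb3 fell (-1.13). Their mean was 4.91 to 5.02 on day 4, against 4.95 to 5.01 with shControl. The 8 endoderm markers averaged 4.79 to 4.98 on day 4, against 4.73 to 4.74 with shControl, and the 8 fibroblast markers stayed between 4.03 and 4.22 on all arrays. The part of these cell types in the changes of the Zfp genes was not tested.

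Genes were also counted by role on day 4, where 21.4% of all genes that reached 6 were called, as given above. Of 10 listed stem cell factors, 4 were members, and Zfp296 and Zfp57 fell. The others were Zfp281, which restrains Nanog, with a change of 0.18 ± 0.14, and Zfp207 with -0.02 ± 0.15 (limma adjusted p 0.439 and 0.963). The value for Zfp207 turned to 0.0476 with centred arrays. Of 6 listed repressors of imprints and retroelements, 4 were members, and Zfp57 alone fell. Zfp445, which keeps imprints together with Zfp57, had 0.03 ± 0.17, Zfp932, which binds endogenous retroviruses, had -0.25 ± 0.12, and Zfp568, which silences a placental transcript of Igf2, had 0.20 ± 0.24. The day 4 arrays of Zfp568 differed widely, at 10.62 and 9.77, against 9.89 and 10.10 with shControl, and its change was -0.22 without day 4 replicate 1 and 0.62, a call, without replicate 2.

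A list of 11 RNA-binding, ribosome and splicing proteins held 9 members. By limma none was called on day 4 on its brightest probe set, and their median change was -0.10. The nearest was Zfp593, a factor of large ribosomal subunit assembly, with 5.70 and 6.13 on day 4, against 6.24 and 6.42 with shControl, and a change of -0.42 ± 0.17 (adjusted p 0.149). Without day 4 replicate 2 it was called, at -0.64. Zfp326, a component of a complex that links elongation to splicing, had 0.35 ± 0.20, Zfp622 had -0.25 ± 0.13, and Zfp598, a ubiquitin ligase that marks collided ribosomes, had -0.23 ± 0.15. Other probe sets of some of these genes differed. For Zfp638 the other changed by -1.06, against -0.22 for the one used. For Zfp106 the others changed by -0.67, -0.76, -1.08 and -0.09, against 0.05. Those of Zfp207 ran from -0.88 to 0.34, and those of Zfp622, Zfp346 and Zfp830 from -0.37 to 0.09. The gaps between probe sets were not tested. Of 15 listed developmental regulators, 5 were members, and Zfp423 and Zfp704 fell. Zfp148, which binds GC-rich promoters, had -0.34 ± 0.20, and Zfp110, a partner of the neurotrophin receptor, had -0.05 ± 0.20, which turned to 0.0135 with centred arrays.

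A list of KRAB repressor machinery held 22 symbols, of which 16 were measured. It also takes in chromatin genes of wider use, Atrx, Daxx, Uhrf1 and Dnmt1 among them. One of the genes measured, Cbx3, had a mean of 4.84, under the threshold of 6. On day 4 none of the 16 rose and 5 fell, or 31.25% against 16.4% of all genes and 21.4% of genes that reached 6. Their median change was -0.45 against 0.00 and -0.08. Cbx5, a heterochromatin protein, had the highest value, 0.64 ± 0.19 (limma adjusted p 0.0552, not called). It was called in 6 alternative settings, with centred arrays (0.70) and without day 4 replicate 2 (0.92) among them. Trim28, the corepressor that KRAB domains recruit, had 11.29 and 11.36 on day 4, against 11.93 and 12.03 with shControl, a change of -0.65 ± 0.13 (limma adjusted p 0.00771). Atrx, a chromatin remodeller that acts with the histone chaperone Daxx, had 7.17 and 7.10 on day 4, against 8.11 and 8.39 with shControl, a change of -1.12 ± 0.14 (adjusted p 0.000861). In both genes day 4 lay below all other arrays. Trim28 was not called when the day 4 and shControl arrays alone were fitted (limma adjusted p 0.0671). Chd4 changed by -0.77 ± 0.19, Uhrf1, which guides maintenance DNA methylation, by -0.64 ± 0.15, and Setdb1 by -0.58 ± 0.15. Cbx5 and Setdb1 were named after their values were seen. The calls were lost for Chd4 without day 4 replicate 1 (-0.53) or shControl replicate 2 (-0.57). They were lost for Uhrf1 without day 4 replicate 1 (-0.47), shControl replicate 1 (-0.61) or shControl replicate 2 (-0.66). Setdb1 was called at -0.75 without day 4 replicate 2. Its call was lost without day 4 replicate 1 (-0.41), shControl replicate 1 (-0.63), shControl replicate 2 (-0.52) or any 1 hairpin array (-0.58), and at -0.34 over the mean of its probe sets.

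The 80 members were spread over 19 chromosomes, with 19 of them on chromosome 7, or 23.75% against 7.75% of all genes measured, and 10 on chromosome 17, or 12.5% against 4.82%. On day 4 none of the 19 on chromosome 7 rose and 5 fell, namely Zfp296, Zfp936, Zfp428, Zfp61 and Zfp975, with a median change of -0.24 over the 19. Of the 463 genes on chromosome 7 that reached 6, 5.62% rose and 16.0% fell, with a median of -0.17. The 61 members on other chromosomes had 5 rises and 5 falls. On chromosome 17, Zfp871 rose and Zfp57 fell. These counts are a description: Zfp genes often lie in clusters of related copies, and whether a probe set read more than 1 of them was not tested.

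A RefSeq promoter window was listed for 66 of the 80 genes, and 16 of these had more than 1. Each gene, here and in the background, was scored on its window with the most CG. A window was counted as CpG-island-like at a GC share of 50% or more and at least 0.6 of the CG expected from its bases, searching the dinucleotide CG, which reads the same on both strands. By that measure 42 of 66 genes qualified, or 63.6%, against 61.6% of all genes with a window and 81.3% of those that reached a mean of 6. The median window held 17 CG, against 24 in genes that reached 6. Of the genes that rose on day 4, 3 of 4 with a window qualified, as did 4 of 8 that fell and 35 of 54 not called.

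Below the threshold the day 4 calls were rises. Of the 75 dim Zfp genes 11 rose and none fell, while 6.61% of all genes under 6 rose and 4.14% fell. Over all 155 genes, 16 rose and 10 fell, and the median change was 0.08. The difference between dim and bright Zfp genes was not tested. The mean that set the threshold includes the day 4 arrays. Over the 6 undifferentiated arrays only Zfp959 would have left the set, at 5.99, and only Zfp707 would have entered it, at 6.01.

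**Figure D3:**
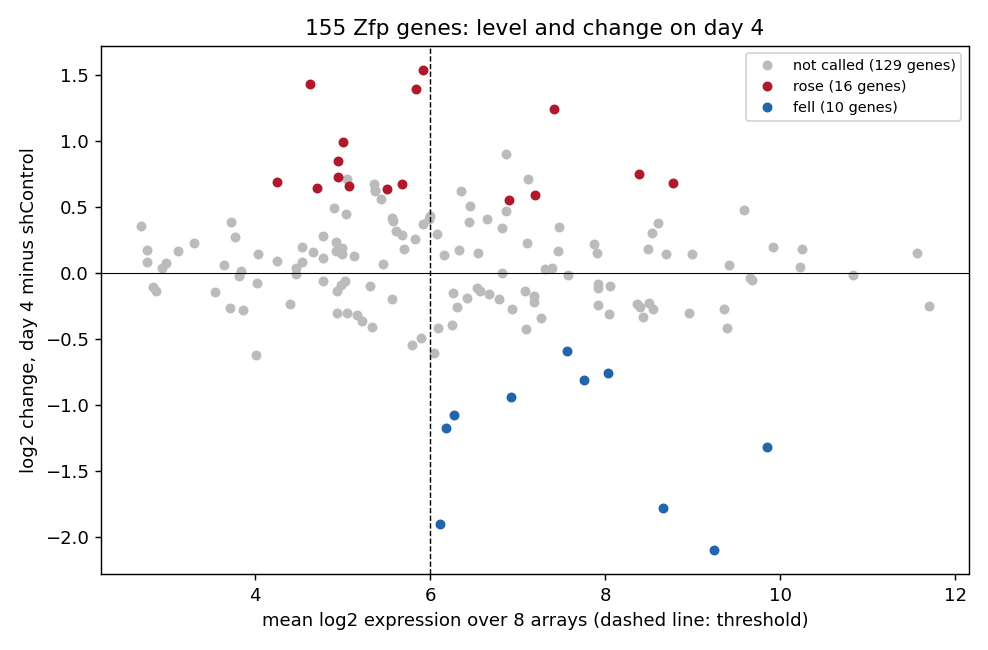
Log2 change on day 4 relative to shControl (vertical axis) against mean log2 expression over the 8 arrays (horizontal axis) for the 155 Zfp genes, 1 point each, with the threshold of 6 as a dashed line. The 10 falls (blue) all lie right of the line, and 11 of the 16 rises (red) lie left of it.

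With the hairpins against Fbxl19, none of the 80 genes passed the limma test at an adjusted p under 0.05 in any comparison. The background was as low: 0.0726% of all genes were called for the mean of both hairpins, 0.242% for shRNA1, 0% for shRNA2 and 0.105% for shRNA2 against shRNA1. At an unadjusted p under 0.05 there were 7 members for the mean of both hairpins (1 higher and 6 lower), 6 for shRNA1 (all lower) and 5 for shRNA2 (1 higher and 4 lower). The shares of all genes at that level were 8.42%, 9.83% and 5.1%, and the members stood at 8.75%, 7.5% and 6.25%. The widest change of a member in any of these comparisons was 0.81 on the log2 scale. All 4 comparisons against shControl, the day 4 one included, share the same 2 control arrays.

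The 80 genes were on balance slightly lower under the hairpins, by little. The median change was -0.09 with shRNA1, -0.05 with shRNA2 and -0.07 for their mean. Over genes that reached 6 it was -0.05, -0.03 and -0.04, and over all genes it was -0.00 for the mean of both. The members below 0 numbered 57 with shRNA1, 54 with shRNA2 and 53 for the mean, or 71.25%, 67.5% and 66.25%. Of genes that reached 6, 58.7%, 57.6% and 59.1% were below 0, and of all genes 50.1%, 51.6% and 50.9%. Without shControl replicate 2 the medians were -0.0118 for shRNA1, 0.0237 for shRNA2 and -0.0133 for the mean, and without shControl replicate 1 they were -0.166, -0.118 and -0.143. All 4 hairpin arrays lay below both control arrays for 14 members and above both for 2, or 17.5% and 2.5%, against 10.6% and 9.53% of all genes and 14.1% and 7.84% of genes that reached 6.

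**Figure D4:**
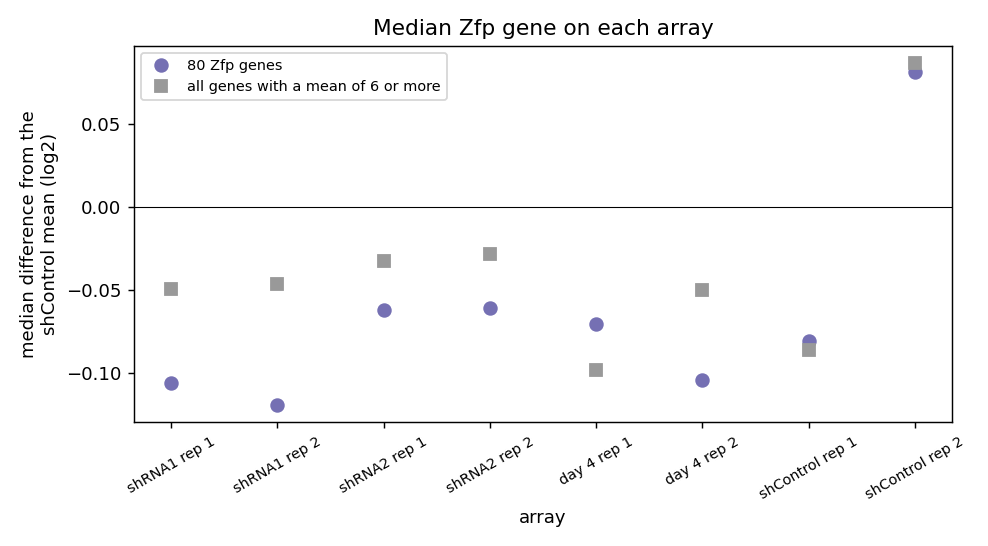
Median difference from the shControl mean in log2 units (vertical axis) on each of the 8 arrays (horizontal axis), over the 80 Zfp genes (circles) and over all genes with a mean of 6 or more (squares). The shRNA1 arrays stand at -0.106 and -0.119 for the Zfp genes, the shRNA2 arrays at -0.062 and -0.061, the day 4 arrays at -0.071 and -0.105, and the 2 shControl arrays at -0.081 and 0.081, the widest gap within a group.

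Zfp423 came nearest to a call under the hairpins. With the array values given above, all 4 hairpin arrays lay below both shControl arrays, and the shRNA1 pair was lower than the shRNA2 pair. The change was -0.72 ± 0.16 with shRNA1 (limma adjusted p 0.150), -0.37 ± 0.16 with shRNA2 (adjusted p 0.969) and -0.55 ± 0.14 for the mean of both (adjusted p 0.312). The shRNA1 value was -0.73 without shControl replicate 1 and -0.71 without replicate 2. Zfp131, a transcription factor with a BTB domain, had 8.96 and 8.67 with shRNA1, 8.82 and 8.83 with shRNA2, and 9.19 and 9.01 with shControl. Its hairpin arrays all lay below both control arrays, and the mean change was -0.28 ± 0.13 (adjusted p 0.609). Zfp593 had -0.27 ± 0.15 (adjusted p 0.671). In the other direction Zfp654 had 0.24 ± 0.16 and Zfp53 had 0.19 ± 0.16, the 2 members whose 4 hairpin arrays all lay above the controls.

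In several genes with a wide change the 2 controls differed from each other. Zfp62 had 6.90 and 7.15 with shRNA1, 6.69 and 7.42 with shRNA2, and 6.79 and 5.70 with shControl. Its shControl replicate 1 lay inside the range of the hairpin arrays and replicate 2 far below it. The change for the mean of both hairpins, 0.80 ± 0.31 (limma adjusted p 0.549), was 0.25 without shControl replicate 2 and 1.34 without replicate 1. These values belong to the brighter of 2 probe sets. On the other, Zfp62 had 6.45 and 6.84 with shRNA1, 6.57 and 6.95 with shRNA2, and 6.35 and 6.82 with shControl. There shControl replicate 2 was the higher control, and the change on day 4 was -0.10. Zfp61 had 6.17 and 6.13 with shRNA1, 6.36 and 6.62 with shRNA2, and 6.56 and 6.99 with shControl, a mean change of -0.45 ± 0.16 (adjusted p 0.483). The shRNA1 pair lay apart from the controls and the shRNA2 pair overlapped them. Zfp764 had 6.28 and 6.25 with shRNA1, 6.83 and 6.85 with shRNA2, and 6.70 and 7.13 with shControl, a change of -0.64 ± 0.16 with shRNA1 (adjusted p 0.205). The probe set of Zfp764 is of the kind that may also read related transcripts.

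With shRNA2 the smallest p values belonged to Zfp740 and Zfp598. Zfp740 had 7.71 and 7.67 with shRNA2, 7.96 and 7.97 with shRNA1, and 7.97 and 8.24 with shControl, a change of -0.42 ± 0.14 with shRNA2 (limma adjusted p 0.839). Zfp598 had 8.12 and 8.21 with shRNA2, 8.38 and 8.35 with shRNA1, and 8.44 and 8.72 with shControl, a change of -0.42 ± 0.15 (adjusted p 0.896). In both genes all hairpin arrays lay below the controls, by a small margin with shRNA1. Genes of ribosome and RNA biology showed no call: Zfp638, an RNA-binding protein whose human counterpart silences retroviral DNA, had 0.25 with shRNA2, and Zfp346, which binds double-stranded RNA, had 0.29.

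**Figure D5:**
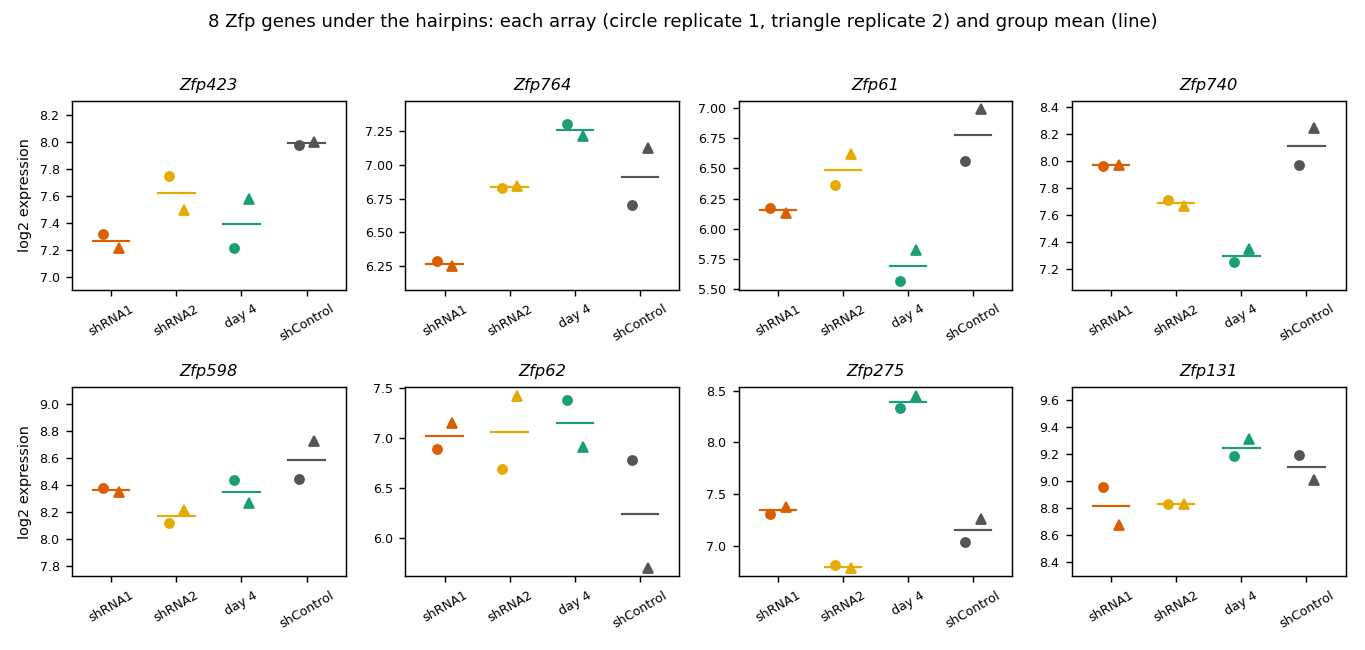
Log2 expression (vertical axis of each panel, own scale) of 8 Zfp genes with low p values under the hairpins or with all hairpin arrays on 1 side of the controls, with 1 symbol per array (circle replicate 1, triangle replicate 2) and a line at the group mean, for shRNA1, shRNA2, day 4 and shControl from left to right. Zfp423 shows the shControl pair, at 7.98 and 8.0, above all other arrays, while the shControl arrays of Zfp62 spread from 5.70 to 6.79.

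Set against each other, shRNA2 and shRNA1 differed at an adjusted p under 0.05 for none of the 80 genes in the limma fit, and at an unadjusted p under 0.05 for 3, or 3.75% against 5.15% of all genes. Those were Zfp764, higher with shRNA2 by 0.57 ± 0.16 (adjusted p 0.478), Zfp275, lower by 0.54 ± 0.14 (adjusted p 0.371), and Zfp212, higher by 0.38 ± 0.17 (adjusted p 0.965). The 2 replicates of each hairpin lay close together in Zfp764 and in Zfp275, and the hairpin pairs did not overlap. With array weights, limma called both genes (adjusted p 0.0331 and 0.0275). The 2 arrays of a group received the same weight: 2.07 for shRNA1, 1.64 for shRNA2, 0.52 for day 4 and 0.57 for shControl. The weights thus set groups apart and not single arrays, and the 2 hairpin groups compared here weighed most. The difference between the hairpins had a median of 0.04 over the 80 genes, against 0.00 over all genes and 0.02 over genes that reached 6.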

How the data were processed

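The deposited log2 expression values of 8 Affymetrix Mouse 430A 2.0 arrays were used, made by the authors with RMA per the submitters' processing notes. The RMA version and whether all arrays were scaled jointly were not given in the sources used here. The labels name a Cy3 label, which differs from the usual labelling of that array type. Of 22690 probe sets, 20393 had 1 gene symbol, and the brightest probe set of each gene gave 12394 genes; all 155 Zfp genes matched RefSeq by gene identifier. A mean for each of 4 groups was fitted with limma 3.58.1 in R 4.3.3 (lmFit, eBayes) to all 8 arrays, leaving 4 residual degrees of freedom. A call meant a p under 0.05 after Benjamini-Hochberg adjustment over all genes. Errors are moderated standard errors. The fit was tested on simulated data. The number of arrays limits the precision.

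The members and lists were chosen with earlier results of these data known. Genes were named by rule: called members on day 4; in other comparisons the 5 on each side with the smallest p where none was called; up to 4 of each list with the widest change; the 3 brightest and the 3 on each side of the threshold; and up to 3 on each side whose arrays lay apart from the controls under both hairpins. The alternatives were other scalings, weights, filters, probe set rules and references, the replicate block, and leaving out each array. Replicate numbers were taken from titles and were not treated as pairing samples in the main fit. The replicate differences of shRNA1 and shRNA2 correlated at 0.504, and with those of shControl at 0.261 and 0.226. Correlations with day 4 ran from -0.0776 to 0.0698. The source of the shared part was not tested, and the replicate block is the alternative that allows for it.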

Additional observations from a re-analysis of the deposited data

Results flagged for a closer look

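The arrays of the 2 hairpins lay on opposite sides of the controls for Zfp275. It had 6.81 and 6.79 with shRNA2, 7.31 and 7.37 with shRNA1, and 7.04 and 7.26 with shControl, so that both shRNA2 arrays lay below and both shRNA1 arrays above the control arrays. Against shControl the change was -0.35 with shRNA2 (limma adjusted p 0.920) and 0.19 with shRNA1 (adjusted p 0.690), neither of them called. The difference, shRNA2 minus shRNA1, was -0.54 on the log2 scale. It did not pass the limma test of the difference itself (adjusted p 0.371), and passed it with array weights (adjusted p 0.0275). Those weights were equal within each group and highest for the 2 hairpin groups.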

How the results depend on the processing

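Limits are set by 2 arrays a group and by shControl replicate 2, which entered all but 1 of the comparisons. The day 4 count of 15 members was 10 (1 rise, 9 falls) when the fit held the compared groups alone, 11 with array weights, 15 with quantile normalization repeated, with centred arrays or with all probe sets of a gene averaged, 16 without the dimmest 30% of genes, and 21 against the 3 undifferentiated groups. Without the threshold it was 26 of 155 genes, with a median of 0.0797; the median over the 80 was -0.0036 with centred arrays. Replicate numbers were shared by all groups, and with the replicate block 16 members were called on day 4 (6 rises, 10 falls), with none called under the hairpins. Leaving out 1 array at a time gave 11 to 20 day 4 calls, with 2 rises and 9 falls without any 1 hairpin array. The medians then ran from -0.154 to 0.0040 for day 4, -0.143 to -0.0133 for the mean of both hairpins, -0.166 to -0.0118 for shRNA1, -0.118 to 0.0237 for shRNA2 and 0.0146 to 0.0655 for shRNA2 against shRNA1. No member was called under the hairpins in any setting, except that array weights, highest for the hairpin groups, called 2 between shRNA2 and shRNA1 (Zfp764 higher, Zfp275 lower).

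The 83 named results were each followed through the alternatives, and values were counted once per result and setting. Of these values 17 changed sign, beside 1355 labelled the same, 63 weaker and 16 stronger. The results that changed sign were all uncalled in the report, and the causes were not tested. For day 4, Zfp207 was 0.0476 with centred arrays, 0.115 against the 3 undifferentiated groups, and -0.115 to 0.0843 without 1 array (0.0787 without day 4 replicate 1, 0.0843 without shControl replicate 1). Zfp568 was -0.199 with its probe sets averaged, and -0.224 without day 4 replicate 1 against 0.624 without replicate 2. Zfp445 was -0.186 without shControl replicate 1 and 0.250 without replicate 2. Zfp110 was 0.0047 with its probe sets averaged, 0.0135 with centred arrays, -0.364 to 0.265 without day 4 replicate 1 or 2, and 0.0273 without shControl replicate 2. Zfp982 was -0.0148 against the 3 undifferentiated groups, -0.0377 without day 4 replicate 1 and -0.153 to 0.458 without shControl replicate 2 or 1. For the mean of both hairpins, Zfp982 was -0.0542 without shControl replicate 2 and 0.557 without replicate 1. With probe sets averaged, Zfp644 was -0.0068 for shRNA2, and Zfp106 was 0.136 for shRNA2 against shRNA1.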

Other observations

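Among the dim Zfp genes, which the threshold left out, 5 of the 11 on chromosome 17 rose on day 4, against 6 of the 64 on other chromosomes, 5.66% of all genes under 6 on chromosome 17 and 6.61% of all genes under 6. The difference was not tested. Zfp942, just under the threshold, had 7.06 and 6.86 on day 4, 5.63 and 5.45 with shRNA1, 5.64 and 5.87 with shRNA2, and 5.43 and 5.42 with shControl. All 6 undifferentiated arrays lay well below day 4, and the change was 1.54 ± 0.15 (limma adjusted p 0.000176). Zfp758, also on chromosome 17, changed by 1.39 ± 0.19 (adjusted p 0.00134), and Zfp386, on chromosome 12, by 1.43 ± 0.26 (adjusted p 0.00560); the call of Zfp386 was lost without shControl replicate 2 (1.30, adjusted p 0.0721). Zfp758 and Zfp386 were chosen after their values were seen.

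Zinc finger genes under 8 other family names were counted in the same way. Of 69 such genes 42 reached a mean of 6, and on day 4 5 of them rose and 12 fell, or 40.5% against 21.4% of all genes that reached 6, with a median change of -0.29 against -0.08. Both Zic genes that reached 6 rose. Of 10 Klf genes 2 rose and 4 fell, of 12 Zbtb genes 3 fell, and of 4 Zmym genes 2 fell. None of the 42 was called under the hairpins by limma. The difference from the Zfp genes was not tested.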
